A study of Mus musculus with 2 samples.

Results

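Oligodendrocyte precursor cells (OPCs) were taken from single-cell RNA sequencing of newborn mouse brain by the markers they carry. A cell was called an OPC when it held at least 3 unique molecular identifiers (UMIs, the tag that counts each captured RNA molecule once) of Pdgfra, Cspg4 and Sox10 together and at least 2 of Olig1 and Olig2 together. Cells with 3 or more UMIs of the fibroblast genes Col1a2 and Dcn, or with more than 1 UMI of the cortical neuron genes Neurod2 and Neurod6, were left out. A barcode entered with 500 or more detected genes and no more than 10% mitochondrial UMIs, which 12846 of 19913 barcodes met. OPCs were thus chosen by measured UMIs of 9 genes. The rule found 455 OPCs, 307 WT cells and 148 cKO cells.

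The study asked what loss of STING, an adaptor of cytosolic DNA sensing encoded by Tmem173, does to the developing cerebral cortex. It sequenced 2 libraries of cells from C57BL/6 mice at postnatal day 0, whose tissue the labels give as telencephalic tissue and the study's methods as cerebral cortex. The WT library is labelled wild type, while the text of the study calls the control mice STINGfl/fl. The cKO library is labelled STINGf/f;Nestin-Cre. There, Cre under the Nestin promoter acts in neural progenitors and their descendants, OPCs included, and not in microglia. With 1 library per genotype there was no replicate, no test was possible, and every interval below covers counting error only. The number of animals behind each library is not given in the sources used here. Nestin-Cre was present in the cKO library only, so Cre and the deletion cannot be told apart. Xist, the transcript that silences an X chromosome, was found in 0 of 307 WT OPCs, which by a floor of 3 cells allows a share of up to 0.977% (exact binomial upper bound 1.19%), and in 146 of 148 cKO OPCs. A Y-linked transcript was found in 217 of 307 WT OPCs and in 1 of 148 cKO OPCs, so sex and genotype cannot be told apart either.

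OPCs are the dividing glial cells that give rise to the myelin-forming oligodendrocytes. In the forebrain they arise from ventral and later from dorsal progenitors and spread through the cortex around birth, where the growth factor PDGF, read by the receptor Pdgfra, keeps them dividing. The basic helix-loop-helix factors Olig1 and Olig2 and the SOX factor Sox10 set the lineage, and Cspg4 encodes the NG2 proteoglycan on the cell surface. Cells that leave the precursor state pass through a committed stage marked by the receptor Gpr17 and by Bcas1 before they switch on myelin genes such as Mbp.

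Promoter sequences are shown for 3 genes of the precursor state whose promoter windows hold the letters ACAAT, the core that SOX factors such as Sox10 read. These genes are Olig2 and Cspg4 of the rule and Rasl11a, a small GTPase gene that was among the leading OPC genes outside it. Each window holds 300 bases around the annotated start, from RefSeq on build GRCm38.p6, 5′ to 3′, all on the plus strand. Capitals mark ACAAT or its reverse complement ATTGT. The windows lie at chr16:91225300-91225599 for Olig2, chr9:56864854-56865153 for Cspg4 and chr5:146844821-146845120 for Rasl11a.
Olig2: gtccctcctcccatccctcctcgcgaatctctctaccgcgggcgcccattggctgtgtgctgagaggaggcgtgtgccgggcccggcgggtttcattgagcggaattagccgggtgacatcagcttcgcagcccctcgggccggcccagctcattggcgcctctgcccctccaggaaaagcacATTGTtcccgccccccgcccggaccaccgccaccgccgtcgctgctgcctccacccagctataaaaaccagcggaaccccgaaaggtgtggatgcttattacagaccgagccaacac
Cspg4: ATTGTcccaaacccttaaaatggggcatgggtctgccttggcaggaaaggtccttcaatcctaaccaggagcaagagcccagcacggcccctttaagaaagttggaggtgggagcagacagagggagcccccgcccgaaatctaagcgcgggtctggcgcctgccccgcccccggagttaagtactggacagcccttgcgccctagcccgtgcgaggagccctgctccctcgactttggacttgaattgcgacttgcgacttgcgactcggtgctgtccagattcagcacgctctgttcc
Rasl11a: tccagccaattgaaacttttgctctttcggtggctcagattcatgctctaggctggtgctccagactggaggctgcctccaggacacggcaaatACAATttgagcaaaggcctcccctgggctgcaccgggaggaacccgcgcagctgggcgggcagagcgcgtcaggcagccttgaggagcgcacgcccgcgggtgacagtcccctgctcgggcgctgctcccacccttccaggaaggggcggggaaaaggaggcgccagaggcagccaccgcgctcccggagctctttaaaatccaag
Both strands were searched, and each of these windows holds the letters once. They occurred in 4 of 14 windows of the leading OPC genes (28.6%) against 31.0% of all 32851 promoter windows and 20.04% of the 6501 windows of genes tested in OPCs. The E-box letters CAGCTG, which read the same on both strands, occurred in 5 of those 14 windows (35.7%) against 16.3% of all windows and 14.1% of those of tested genes. A match describes the letters only. A window was found for 10 of the 15 leading genes and for 3 of the 5 rule genes.

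OPCs made up 4.54% of kept WT cells (95% exact binomial interval 4.05–5.06, 307 of 6766) and 2.43% of kept cKO cells (2.06–2.85, 148 of 6080). The share was therefore 2.10 percentage points lower in the cKO library (difference -2.10, -2.75 to -1.46). Cells with Olig1 or Olig2 that did not reach the OPC threshold were also fewer, at 7.12% of WT and 4.26% of cKO cells (difference -2.86, -3.67 to -2.06). OPCs formed 38.9% of all Olig cells in WT (35.5–42.4) and 36.4% in cKO (31.7–41.2), a difference of -2.55 points whose interval ran from -8.39 to 3.41. Among Olig cells the OPC share thus did not differ beyond counting error, while Olig cells as a whole held a smaller part of the cKO library. Both shares rest on a threshold of Olig1 and Olig2 UMIs. Of Olig cells short of the OPC threshold, thinned to equal depth, 77.3% of WT and 68.5% of cKO cells held an Olig1 UMI. For Olig2 the shares were 60.1% and 44.2%. Whether lower Olig1 and Olig2 levels per cell put cKO cells below the threshold was not tested. Neurons with at least 3 UMIs of Neurod2 and Neurod6, in contrast to Olig cells, made up 41.4% of WT and 49.8% of cKO cells. This class leaves out neurons without these cortical genes, so the share of all neurons was not measured. Astrocytes and radial glia held 6.21% and 6.30%. Microglia were also fewer, at 0.872% of WT and 0.461% of cKO cells (difference -0.41, -0.71 to -0.12). The share of OPCs in a library also depends on how many other cells were captured. The difference was -3.57 points when cells were held to a stricter filter of 1000 genes and 5% mitochondrial UMIs, -1.36 without a limit on mitochondrial UMIs and -1.34 with the thresholds read in cells thinned to equal depth.

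The threshold cut through few cells. The counts around each threshold are of cells within the limits on fibroblast and neuron genes. Of such WT cells past the Olig1 and Olig2 threshold, 415 held no UMI of Pdgfra, Cspg4 or Sox10. A further 48 held 1, 19 held 2, and 26 held 3, the first count that the rule accepts. The cKO counts were 218, 29, 12 and 14. In each library fewer cells held 2 UMIs than held 1 or 3, though in cKO the count at 4 UMIs was also 12. On the other side of the rule, 27 WT and 5 cKO cells with enough Pdgfra, Cspg4 and Sox10 held no UMI of Olig1 and Olig2, 3 WT and 2 cKO cells held only 1, and 2 WT and 1 cKO cells held exactly 2. Cells that met both thresholds but carried 2 or more Neurod2 and Neurod6 UMIs numbered 38 in WT and 25 in cKO, and none was left out for fibroblast genes.

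**Figure D1:**
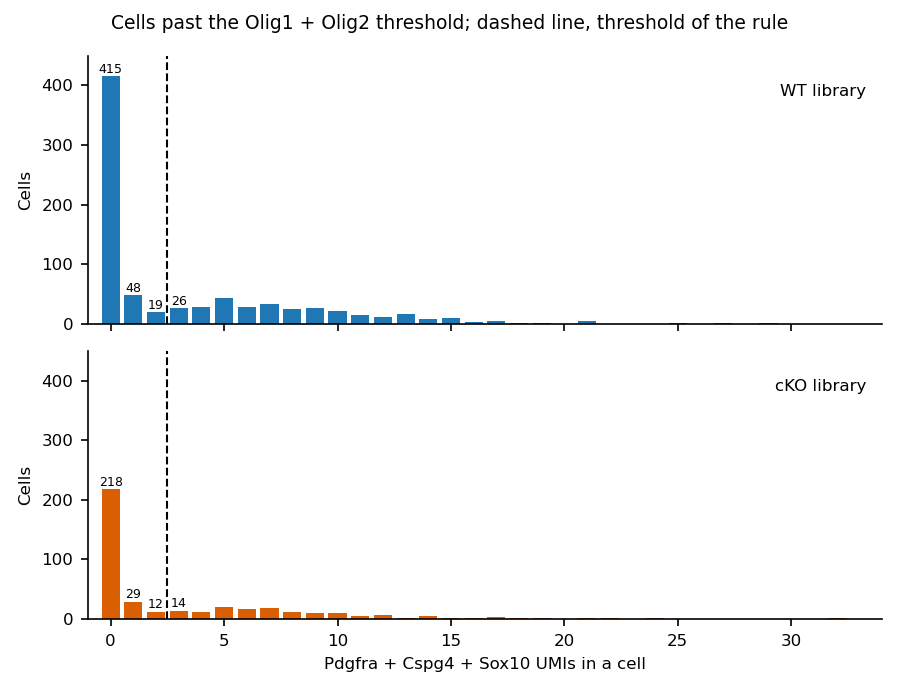
Number of cells (vertical axis) by their summed UMIs of Pdgfra, Cspg4 and Sox10 (horizontal axis), in the WT library (top) and the cKO library (bottom). Cells are those with at least 2 UMIs of Olig1 and Olig2 that lie within the limits on fibroblast and neuron genes. The dashed line is the threshold of the rule, with 19 WT and 12 cKO cells at 2 UMIs and 26 and 14 at 3.

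OPCs were somewhat shallower than the average kept cell. The median OPC held 5839 UMIs in WT (range 968–27347) and 6542 in cKO (range 1782–23739), against 6653 and 7629 over all kept cells. Summed over OPCs, 2001680 WT and 1115373 cKO UMIs were available, and levels are given as CPM, the UMIs of a gene scaled to these sums. No OPC barcode occurred in both libraries, although 19 barcodes did overall. A doublet score above 0.25 was given to 7 WT and 2 cKO OPCs, which were kept.

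All 5 markers of the label were present. Pdgfra was found in 97.4% of WT and 95.9% of cKO OPCs, Sox10 in 83.7% and 87.2%, Cspg4 in 65.5% and 48.0%, Olig1 in 100% and 98.0%, and Olig2 in 96.1% and 97.3%. These values chose the cells and are a description. Microglia, which should lack Pdgfra, held 0 Pdgfra UMIs in 59 WT and 28 cKO cells, at median depths of 9891 and 12021.5 UMIs. By a floor of 3 cells this allows shares of up to 5.08% and 10.7%. A Pdgfra UMI was found in 1.39% of WT and 0.891% of cKO neurons. The shares were 0.952% and 0.522% in astrocytes and radial glia, and 7.88% and 8.11% in Olig cells outside the rule. Lhfpl3 and Matn4, which the rule did not read, are among the 15 genes picked below as highest in OPCs over other cells. Their excess in OPCs is thus also a description. Lhfpl3, a tetraspan membrane protein gene, reached 613 CPM in WT OPCs and 685 CPM in cKO OPCs, against 11.4 and 13.3 CPM in the other Olig cells and 3.29 and 1.12 CPM in astrocytes and radial glia. Matn4, a matrix protein gene, reached 229 and 197 CPM against 1.20 and 1.40 CPM in astrocytes and radial glia.

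The 15 genes outside the rule that stood highest in OPCs over all other cells in both libraries were Serpine2, Matn4, Sulf2, Bcas1, Lhfpl3, Rasl11a, Pcdh15, Scrg1, Pllp, Ednrb, C1ql1, Enpp2, Cntn1, Sox8 and Qpct. Serpine2, a secreted serine protease inhibitor, was at 1484 CPM in WT OPCs (95% exact Poisson interval 1431–1538) and 1539 CPM in cKO OPCs (1467–1614). It was not restricted to OPCs, since microglia held 594 and 836 CPM. Ednrb, the endothelin B receptor, was at 796 and 545 CPM in OPCs and at 441 and 334 CPM in astrocytes and radial glia. Sulf2, which trims sulfates from heparan sulfate chains, was at 276 and 299 CPM. Pcdh15, a protocadherin, was at 243 and 177 CPM, and Cntn1, a contactin adhesion molecule, at 632 and 514 CPM. Of the 15, 2 (Rasl11a and C1ql1) were at least 2-fold lower in cKO OPCs and 0 at least 2-fold higher, beside 9.69% and 2.99% of all genes tested in the comparison of genotypes below.

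The other Olig cells differed from OPCs in the genes of earlier progenitors. Egfr, the epidermal growth factor receptor carried by dividing glial progenitors, was at 22.5 CPM (16.4–30.1) in WT and 17.9 CPM (10.95–27.7) in cKO OPCs, but at 138 and 122 CPM in the other Olig cells. Slc1a3, a glutamate transporter of radial glia and astrocytes, was at 267 and 212 CPM in OPCs against 1867 and 1527 CPM in the other Olig cells. Dll3, a Notch pathway ligand, went the opposite way, with 171 and 148 CPM in OPCs and 28.2 and 48.3 CPM in the other Olig cells. The same orders held in each library by intervals that did not overlap.

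**Figure D2:**
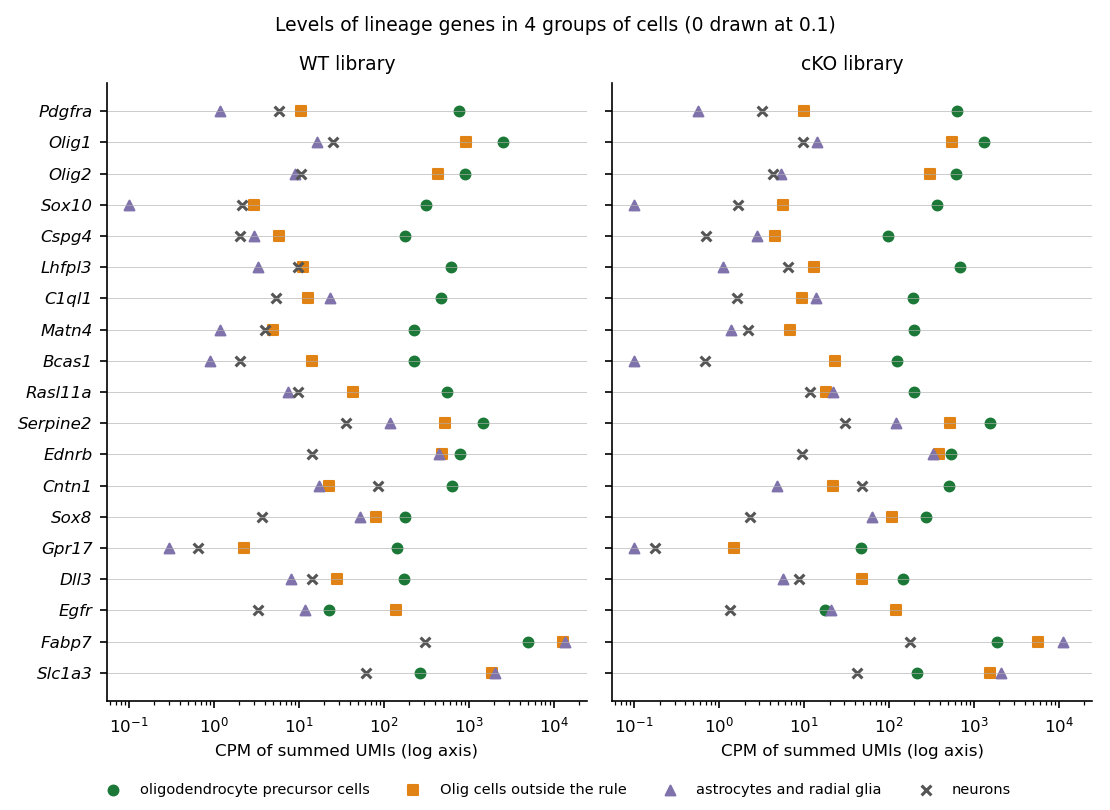
Level of 19 genes in 4 groups of cells, as CPM of summed UMIs on a log axis, in the WT library (left) and the cKO library (right); values of 0 are drawn at 0.1. Lineage genes stand highest in OPCs (green circles), whereas Egfr, Fabp7 and Slc1a3 stand lower in OPCs than in Olig cells outside the rule (orange squares). The genes of the rule chose the OPCs. Lhfpl3, C1ql1, Matn4, Bcas1, Rasl11a, Serpine2, Ednrb, Cntn1 and Sox8 were picked as highest in OPCs. The place of all these genes is thus a description.

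To compare the genotypes, each gene's CPM in cKO OPCs was divided by that in WT OPCs, and a gene was counted when it lay at least 2-fold apart. Of 6418 genes that reached 50 UMIs in WT or cKO OPCs, 192 (2.99%) were at least 2-fold higher and 622 (9.69%) at least 2-fold lower in cKO OPCs. In all other cells, 87 of the same genes were at least 2-fold higher and 587 lower. Both comparisons set the same 2 libraries against each other. The minimum of 50 UMIs equals 25.0 CPM in WT OPCs and 44.8 CPM in the fewer cKO UMIs, so a gene high in WT entered at a lower level and the excess of lower genes is partly set by the entry. With 44.8 CPM in either library as the entry, 4716 genes remained, of which 189 (4.01%) were at least 2-fold higher and 311 (6.59%) at least 2-fold lower. The median log2 ratio over all tested genes, with 10 CPM added to each value, was -0.03 in OPCs and -0.06 in the other cells, and list medians below are on this scale.

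Among the 5 marker genes that the rule requires, Olig1 had the log2 ratio furthest from 0. Olig1 was at 2564 CPM in WT OPCs (2495–2636) and 1309.9 CPM in cKO OPCs (1244–1379), 1.96-fold lower (log2 ratio -0.97, interval -1.05 to -0.89). Olig2 was at 908 CPM (866–950.5) and 611 CPM (566–659), 1.48-fold lower. Cspg4 was at 179 CPM (161–199) and 97.7 CPM (80.2–118), 1.84-fold lower. In each of these the intervals of the libraries did not overlap. Pdgfra was at 774 CPM (736–813) and 639 CPM (593–688), a log2 ratio of -0.28. Sox10 was the exception, at 318 CPM (294–343) in WT and 369 CPM (335–407) in cKO, a log2 ratio of 0.22 with an interval from 0.03 to 0.40. All other cells held 93.5 and 36.7 CPM of Olig1, but this sum also falls with the smaller share of Olig cells in the cKO library. Olig cells outside the rule were themselves chosen on Olig1 and Olig2. An Olig1 UMI was found in 77.3% of these WT and 68.5% of these cKO cells when thinned (94.0% and 92.3% unthinned). Because the rule sets a floor on the sums of these genes in each cell, the levels among OPCs are in part fixed by the choice of cells.

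Precursor genes outside the rule were mostly lower in cKO OPCs. Of 22 tested genes of a list of 24, 5 (Sox6, C1ql1, Xylt1, Tmem100 and Gpr37l1) were at least 2-fold lower and 0 at least 2-fold higher, against 9.69% of all tested genes at least 2-fold lower and 2.99% higher. In all, 16 of the 22 had a log2 ratio below 0. The median was -0.44, against -0.23 for the same genes in the other cells and -0.03 for all tested genes in OPCs. Sox6, a SOX factor that holds precursors back from maturing, was at 327 CPM in WT OPCs (302–353) and 117 CPM in cKO OPCs (97.4–138), 2.80-fold lower. C1ql1, a secreted C1q-like protein, was at 476 CPM (446–507) and 195 CPM (169–222), 2.45-fold lower. Gpr37l1, an orphan receptor of glia, was at 168 CPM (151–187) and 36.8 CPM (26.4–49.9), 4.58-fold lower. All of these WT and cKO intervals stood apart. Sox6 and Gpr37l1 were also lower in Olig cells outside the rule, at 77.9 and 32.3 CPM for Sox6 and 50.7 and 7.23 CPM for Gpr37l1, and in astrocytes and radial glia, at 114 and 42.6 CPM and at 28.4 and 6.45 CPM. Rasl11a, whose promoter is printed above, was at 553 CPM (521–587) in WT and 199.9 CPM (175–228) in cKO, 2.77-fold lower, while in all other cells together it was at 12.7 and 13.4 CPM. These other cells did not move alike, since Rasl11a was at 42.9 CPM in WT and 18.3 CPM in cKO Olig cells outside the rule, and at 7.47 and 22.2 CPM in astrocytes and radial glia. Not all precursor genes were lower. Sox8, a SOX factor close to Sox10, was at 179.9 CPM (162–199) in WT and 274 CPM (245–307) in cKO, 1.53-fold higher, but with the stricter cell filter its log2 ratio, with 10 CPM added, fell from 0.58 to 0.021. Cacng4, an auxiliary subunit of AMPA receptors, was at 391 and 536 CPM, and Lhfpl3 at 613 and 685 CPM. Bcan, the brevican proteoglycan, was at 910.2 and 968 CPM.

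Among genes of the committed stage, Gpr17 stood furthest apart. Gpr17 had 283 UMIs in WT and 52 in cKO OPCs, at 141 CPM (125–159) and 46.6 CPM (34.8–61.1), which was 3.03-fold lower (log2 ratio -1.60, interval -2.06 to -1.17). Gpr17 was the 1 gene of the 10 tested of a list of 16 that lay at least 2-fold lower (9.69% of all tested genes did), and 0 lay at least 2-fold higher. The list median was -0.42, against -0.09 in the other cells. Itpr2, an intracellular calcium channel, was at 131 and 69.0 CPM, and Tcf7l2, a transcription factor of newly formed oligodendrocytes, at 74.9 and 43.0 CPM. Bcas1 was at 227 CPM in WT OPCs and 124 CPM in cKO OPCs, but a single WT cell gave 79 of its 454 UMIs, and without that cell the WT level was 189 CPM. Sirt2, a deacetylase of oligodendrocytes, was at 241 (220–264) and 216 CPM (190–245), and without the same WT cell, which held 92 of its UMIs, the WT level was 197 CPM. Without that cell the list median was -0.25 and 5 of the 10 tested genes had a ratio below 0, against 7 with it. Under the other alternatives tried the list median ran from -0.90 to -0.28. Fyn, a kinase of differentiating oligodendrocytes, was higher in cKO at 463 and 575 CPM. Enpp6, a marker of newly formed oligodendrocytes, had 6 UMIs in WT and 1 in cKO, too few to compare.

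Of 15 listed myelin genes, 5, Mog, Mobp, Mal and Opalin among them, had 0 UMIs in OPCs of both libraries, while Cd9 was found in 89.6% of WT and 85.8% of cKO OPCs and Cnp in 56.4% and 56.1%. The 4 tested genes had a median log2 ratio of -0.72 against -0.29 in the other cells, and 0 of the 4 reached 2-fold (2.99% of all tested genes were higher and 9.69% lower by as much). This median rested on 1 WT cell: without it the median was 0.14, and 2 of the 4 genes were below 0. Mbp, myelin basic protein, was at 97.4 CPM (84.2–112) in WT and 51.1 CPM (38.7–66.2) in cKO, but that WT cell held 139 of the 195 WT UMIs, and a single cKO cell held 21 of 57. Without the highest cell of each library Mbp was at 28.2 CPM in WT OPCs (21.3–36.6) and 32.5 CPM in cKO OPCs. The libraries then did not differ beyond counting error. Cnp, a phosphodiesterase of early myelin, was at 243 and 148 CPM (198 CPM in WT without that cell), and the tetraspanin Cd9 at 633 and 463 CPM.

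The share of OPCs that carried a gene was compared at equal depth, by drawing 3000 UMIs from each of the 273 WT and 142 cKO OPCs that held as many. A Gpr17 UMI was then found in 36.3% of WT (30.6–42.3) and 11.3% of cKO OPCs (6.58–17.7), a difference of -25.0 points (-32.6 to -16.4). Without thinning the shares were 49.2% and 25.0%. Neurons, which should lack Gpr17, gave 0.147% and 0% of thinned cells at full median depths of 8537 and 8928 UMIs, so the OPC shares lay above background. A Sox6 UMI was found in 64.5% of thinned WT and 28.9% of thinned cKO OPCs (82.7% and 55.4% unthinned), beside 22.5% and 9.16% of thinned Olig cells outside the rule. C1ql1 was found in 63.7% and 35.9% (85.0% and 55.4%). Bcas1 was found in 35.2% and 26.8% of thinned cells (51.5% and 43.9% unthinned), with a difference of -8.40 points whose interval, -17.7 to 1.45, included 0. Lhfpl3 was found in 80.6% and 77.5% (91.2% and 85.8%), a difference of -3.12 points (-12.1 to 5.27). The gaps were therefore seen for some precursor genes and were within counting error for others in the same cells. Fewer cells with a UMI and less RNA per cell cannot be told apart by such shares.

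**Figure D3:**
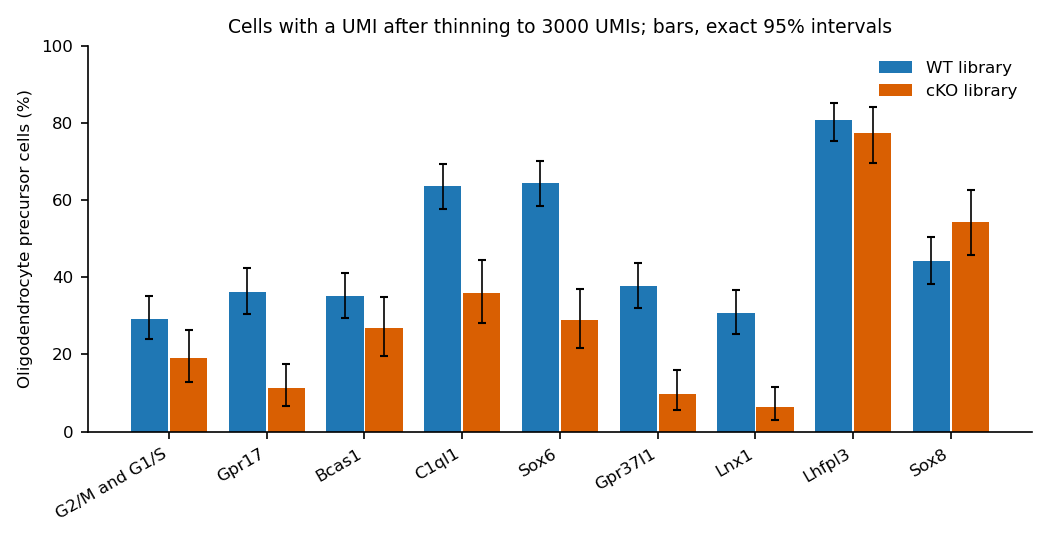
Percentage of OPCs (vertical axis) with at least 1 UMI of a gene, or with at least 1 G2/M and 1 G1/S UMI, after each cell was thinned to 3000 UMIs, in WT (blue, n = 273 cells) and cKO (orange, n = 142 cells). Bars with whiskers are exact 95% binomial intervals; the intervals stand apart for Gpr17, C1ql1, Sox6, Gpr37l1 and Lnx1 and overlap for Bcas1, Lhfpl3, Sox8 and the cell cycle genes.

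Genes were also read in OPCs with and without a Gpr17 UMI. In WT, 151 OPCs held a Gpr17 UMI and 156 did not, at median depths of 5656 and 5983 UMIs, and in cKO 37 did and 111 did not, at 7207 and 6368 UMIs. Cd9 was at 805 CPM with and 472 CPM without Gpr17 in WT, and at 728 and 360 CPM in cKO OPCs. Sirt2 was at 317 and 170 CPM in WT (226 with Gpr17 when the cell that held most Mbp is left out) and at 373 and 155 CPM in cKO OPCs. Bcas1 was at 255 and 200.4 CPM in WT (177 with Gpr17 without that cell) and at 126 and 123 CPM in cKO OPCs. Egfr went the other way, at 5.16 CPM with and 38.7 CPM without Gpr17 in WT, and at 3.22 and 23.6 CPM in cKO OPCs. The Egfr values with Gpr17 rested on 5 UMIs in WT and 1 in cKO. In cKO the intervals with Gpr17 (0.082–17.9) and without it (14.2–36.9) overlapped. Dll3 followed Egfr, at 139 and 200.4 CPM in WT OPCs and 70.8 and 178 CPM in cKO OPCs.

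Progenitor genes showed no common shift. Of 17 tested genes, 2 were at least 2-fold lower in cKO OPCs and 0 at least 2-fold higher, beside 9.69% and 2.99% of all tested genes, with a median of -0.08 against -0.11 in the other cells. The median lay on either side of 0 under the alternatives tried, from -0.18 to 0.050. Fabp7, a fatty acid binding protein of radial glia, was at 4979 CPM in WT OPCs (4882–5078) and 1895 CPM in cKO OPCs (1815–1978), 2.63-fold lower. Hes1, a Notch target, was at 69.4 CPM (58.4–82.0) and 20.6 CPM (13.1–30.9), 3.37-fold lower. Dll1, a Notch ligand, was at 66.9 and 117 CPM. Of the 9 tested genes of the Notch pathway, 1 (Hes1) was at least 2-fold lower, and the median was 0.13 against 0.01 in the other cells.

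Receptors for growth factors and their feedback genes were read next. Of 14 tested genes, none lay 2-fold apart, beside 2.99% of all tested genes higher and 9.69% lower, with a median of -0.06 against -0.10 in the other cells. The list includes Pdgfra, whose UMIs the rule read, so its ratio is in part fixed by the choice of cells. Spry4, an inhibitor induced by receptor tyrosine kinases, was at 137 CPM in WT OPCs and 70.8 CPM in cKO OPCs (134.8 and 59.7 CPM without the highest cell of each library, past 2-fold), whereas Etv5, an ETS factor induced by the same pathway, was at 56.0 and 100.4 CPM. These genes of 1 signalling route thus lay in opposite directions.

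Glutamate and GABA receptors, through which OPCs sense neurons, were listed together with ion channels such as Kcnj10, Kcnd2 and Scn3a. The closing section calls this mixed list synaptic receptors. Of its 12 tested genes, 3 (Gria2, Grin3a and Grm5) were at least 2-fold lower and 0 at least 2-fold higher. Among all tested genes 9.69% were lower and 2.99% higher by as much. Gria2, the AMPA receptor subunit that limits calcium entry, was at 821 CPM in WT OPCs (782–862) and 374 CPM in cKO OPCs (339–411), 2.20-fold lower, and in all other cells at 554 and 373 CPM. Grin3a, an NMDA receptor subunit, was at 80.4 and 26.0 CPM, and Grm5, a metabotropic glutamate receptor, at 77.9 and 25.1 CPM. The list median was -0.40 against -0.17 in the other cells. None of 14 tested genes of adhesion, matrix and guidance lay 2-fold apart, with a median of -0.18.

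Dividing OPCs were found in each library. After thinning, 29.3% of WT (24.0–35.1, 80 of 273) and 19.0% of cKO OPCs (12.9–26.4, 27 of 142) held at least 1 G2/M and at least 1 G1/S UMI, a difference of -10.3 points (-18.7 to -1.14). Without thinning the shares were 36.2% and 31.1%, and the interval of that difference, -14.3 to 4.67, included 0. The thinned share was 4.94% and 4.86% in neurons and 41.4% and 38.2% in the other Olig cells. OPCs thus lay between neurons and the other Olig cells in each library. A stricter count, at least 5 G2/M UMIs, took in 45 of 307 WT OPCs (14.7%) and 16 of 148 cKO OPCs (10.8%), a difference of -3.85 points (-10.2 to 3.36). These dividing cells were deeper, with medians of 9158 and 15778 UMIs against 5539 and 6393 in the rest.

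Cell cycle genes were read in the same way. Of 14 tested G1/S genes, 3 (Mcm3, Mcm5 and Tyms) were at least 2-fold lower in cKO OPCs (9.69% of all tested genes were). The G1/S median was -0.45 against -0.51 in the other cells, and ran from -1.22 to -0.40 in OPCs under the alternatives tried. Of 15 tested G2/M genes, 0 lay 2-fold apart, with a median of -0.23 against -0.40. That median changed sign to 0.66 with the stricter cell filter, which left 123 WT and 51 cKO OPCs. Ccnd1, the D cyclin that drives entry into the cycle, was at 314 CPM in WT OPCs (290–340) and 156 CPM in cKO OPCs (134–181), 2.01-fold lower, and also lower in the other cells at 60.3 and 29.6 CPM. Cdkn1c, an inhibitor of cyclin-dependent kinases, was at 35.0 CPM in WT OPCs (27.3–44.2) and 95.9 CPM in cKO OPCs (78.6–116), 2.74-fold higher, whereas in the other cells it was at 83.2 and 61.2 CPM. Cdkn1c was higher in cKO in nondividing OPCs, at 38.1 and 107 CPM, and in dividing OPCs it was at 25.1 and 56.8 CPM, where the intervals overlapped. Gpr17 was lower in cKO in both, at 94.0 and 28.4 CPM in dividing and 156 and 51.8 CPM in nondividing OPCs.

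Transcription factors of region were tested because OPCs come from ventral and dorsal sources. Of 6 tested, 1 (Dlx2) was at least 2-fold higher in cKO and 0 lower (2.99% and 9.69% of all tested genes), with a median of 0.52 against 0.00 in the other cells. Dlx2, a ventral forebrain factor, was at 29.5 CPM (22.4–38.0) and 62.8 CPM (48.9–79.3), 2.13-fold higher, while the other cells were at 105 and 107 CPM. A pair of cKO cells held 20 and 17 of its 70 UMIs, and without the highest cell of each library Dlx2 was at 24.7 CPM in WT OPCs and 45.8 CPM in cKO OPCs, under 2-fold. Lhx2, a dorsal telencephalic factor, was at 73.4 and 125 CPM. The list median changed sign to -0.088 with the stricter cell filter and to -0.19 when the OPC thresholds were read after thinning.

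The target of the study could not be followed in these cells. Tmem173 had 2 UMIs in WT OPCs and 0 in cKO OPCs, below what any comparison needs, and in all other cells 130 and 18 UMIs. Whether the captured end of the RNA lies in the deleted exons is not given in the sources used here. Of the list of cytosolic DNA sensing and NF-kB genes, 4 were tested and 0 lay 2-fold apart, beside 2.99% of all tested genes higher and 9.69% lower, with a median of 0.35 against 0.08 in the other cells.

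Other gene groups are given beside the rest of the library. Of 14 tested sterol synthesis genes, 5 (Cyp51, Nsdhl, Idi1, Hmgcs1 and Msmo1) were at least 2-fold lower (9.69% of all tested genes were), with a median of -0.80 in OPCs and -0.85 in the other cells. Cyp51, a demethylase of the pathway, was at 179 CPM in WT OPCs and 57.4 CPM in cKO OPCs, and Insig1, a brake on the pathway, at 77.4 and 152 CPM. Ezh2, the methyltransferase of Polycomb repressive complex 2, was at 148 CPM (132–166) and 36.8 CPM (26.4–49.9), 4.04-fold lower, and it was the 1 of 7 tested genes of that complex past 2-fold. In the other cells it was at 135 and 20.4 CPM. Of 11 tested glucocorticoid and stress genes, 3 (Per1, Arrdc4 and Klf9) were at least 2-fold higher and 1 (Junb) at least 2-fold lower (2.99% and 9.69% of all tested genes), with a median of 0.36 against 0.23 (-0.35 in OPCs with the stricter cell filter). The list named Id, BMP and Wnt brakes holds both effectors and inhibitors of these signals, so its median mixes opposite roles. Of its 5 tested genes, 1 (Id1, which does not enter at 44.8 CPM) was at least 2-fold lower (9.69% of all tested genes were). The median was -0.17 in OPCs and 0.46 in the other cells, and from -0.21 to 0.16 in OPCs under the alternatives tried.

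**Figure D4:**
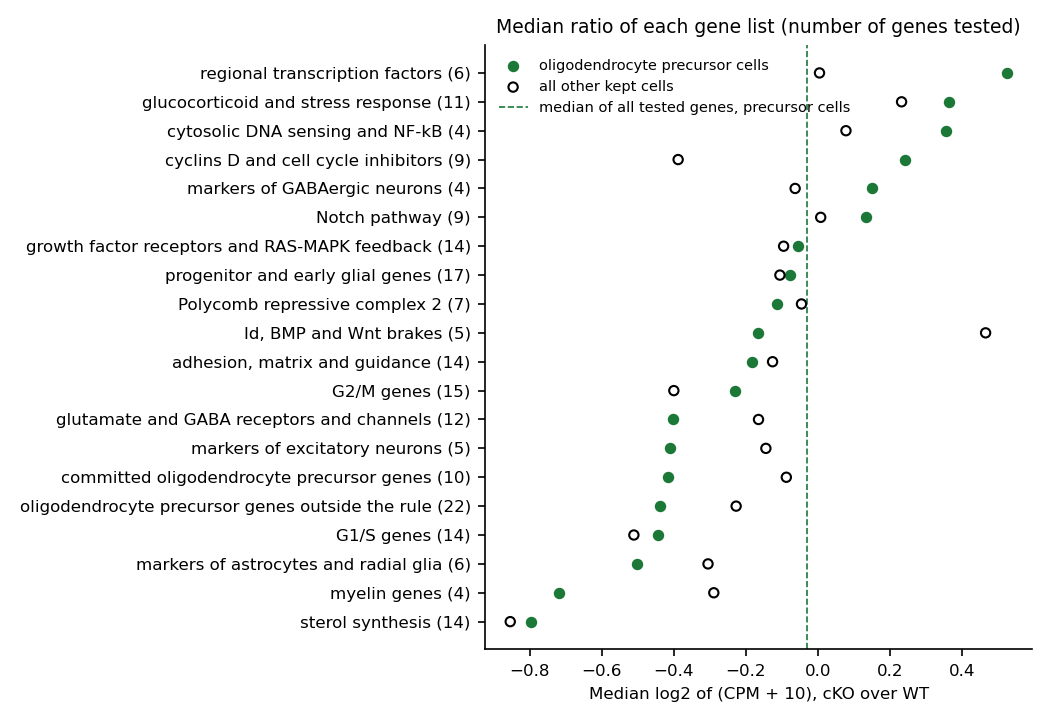
Median log2 ratio of cKO over WT, of CPM plus 10, for gene lists with at least 4 tested genes (number in brackets), in OPCs (filled circles) and in all other kept cells (open circles). The dashed line is the median of all tested genes in OPCs, -0.03; among these lists myelin (whose median rests on 1 WT cell) and sterol synthesis genes stand lowest in OPCs and regional transcription factors highest.

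The 10 genes furthest above WT were led by a gene with no known role in the lineage. Gm8730, annotated as a processed pseudogene, was at 30.5 CPM in WT OPCs and 758 CPM in cKO OPCs, 24.9-fold higher, and at 27.8 and 681 CPM in the other cells. Reads of a processed pseudogene may be split with its parent gene, so this value is uncertain. Per1, a clock gene that glucocorticoids induce, was at 11.5 CPM (7.28–17.2) and 88.8 CPM (72.1–108), 7.72-fold higher. The other genes of the 10 highest were Arrdc4, Ppcdc, Chst2, Dyrk2, Gm26917, Gas1, Pom121 and Gtf2ird1, between 2.84-fold and 5.29-fold higher. Chst2, a sulfotransferase, was at 63.9 and 214 CPM in OPCs and 109.5 and 132 CPM in the other cells, and Gas1, a membrane protein of growth arrest, at 96.9 and 275 CPM in OPCs and 65.6 and 94.2 CPM in the other cells. Both stood higher in cKO by more in OPCs than in the other cells, a difference that was not tested.

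Among the 10 lowest genes, several were lower by as much in the other cells. Dynll1, a light chain of the dynein motor, was at 1262 CPM in WT OPCs (1213–1312) and 275 CPM in cKO OPCs (245–308), 4.58-fold lower, and at 1275 and 305 CPM in the other cells. Mrpl14, Mrpl36 and Coa3, nuclear genes of mitochondrial proteins, were 9.78-fold, 7.01-fold and 7.32-fold lower in OPCs. N6amt2, a methyltransferase gene, had 132 UMIs in WT and 4 in cKO OPCs, a log2 ratio of -4.20 with an interval from -6.10 to -2.81. Fam213b was at 33.5 CPM in WT OPCs and 0 in cKO, at least 12.4-fold lower by a floor of 3 UMIs. Fam136a and Fam212b were 9.66-fold and 9.79-fold lower. Lnx1, a ubiquitin ligase that acts on the Notch regulator Numb, differed in this group by being an OPC gene: it was at 124 CPM (109–140) in WT and 22.4 CPM (14.5–33.1) in cKO OPCs, 5.53-fold lower, and at 3.41 and 1.17 CPM in the other cells. A Lnx1 UMI was found in 30.8% of thinned WT OPCs and 6.34% of thinned cKO OPCs (48.5% and 14.2% unthinned). Olig cells outside the rule were at 3.30% and 0.797% thinned (difference -2.51 points, -4.71 to 0.0013). Their unthinned shares were 8.71% and 3.47% (difference -5.24 points, -8.68 to -1.41).

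**Figure D5:**
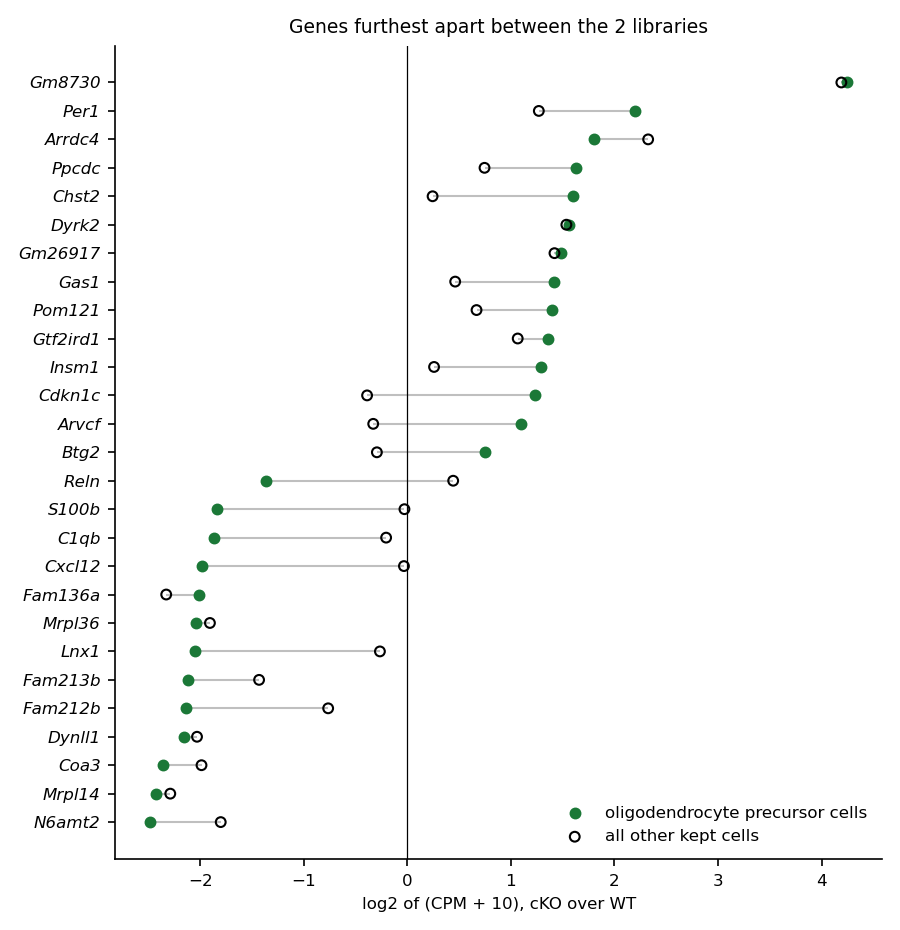
Log2 ratio of cKO over WT, of CPM plus 10, in OPCs (filled circles) and in all other kept cells (open circles), for the genes furthest apart between the libraries in OPCs and those whose ratio in OPCs departs most from the other cells. Gm8730 and Dynll1 lie alike in both, while Cdkn1c, Arvcf and Btg2 lie above 0 in OPCs and below 0 in the other cells.

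With 10 CPM added, the ratio in OPCs departed most from that in the other cells for Cdkn1c, Arvcf, Chst2, Insm1 and Btg2 on the higher side. On the lower side it did so for Cxcl12, Reln, S100b, Lnx1 and C1qb. Lnx1 lay below the added 10 CPM in the other cells, which shrinks its ratio there. Insm1, a zinc finger factor of neural progenitors, was at 42.0 CPM (33.5–52.0) in WT and 117 CPM (98.2–139) in cKO OPCs, and at 156 and 189 CPM in the other cells. Its log2 ratio, with 10 CPM added, fell from 1.29 to 0.47 with the stricter cell filter, to 0.72 with the thresholds read after thinning and to 0.69 without OPCs that held markers of other cells. Arvcf, a catenin of cell junctions, was at 26.5 and 68.1 CPM, and Btg2, an antiproliferative gene, at 51.0 and 92.3 CPM. S100b, a calcium binding protein of glia that early OPCs also express, was at 48.0 CPM (38.9–58.6) in WT and 6.28 CPM (2.52–12.9) in cKO OPCs, 7.64-fold lower. After thinning, S100b was found in 11.4% of WT OPCs and in 0 of 142 cKO OPCs, which by a floor of 3 cells allows a share of up to 2.11% of cells with a UMI at that depth (exact binomial upper bound 2.56%). Unthinned, the shares were 20.2% and 4.05%, so the limit does not bound the cells that express the gene. S100b was also lower in the other Olig cells, at 3.30% of thinned WT and 0.398% of thinned cKO cells. Cxcl12, Reln and C1qb rested on single WT cells, which held 53 of 59, 61 of 78 and 51 of 53 UMIs.

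Markers of other cells were read in the same OPCs, where the counts of called genes stand beside 2.99% higher and 9.69% lower among all tested genes. Of the microglia list, 2 of 10 genes, C1qb among them, were tested and both were at least 2-fold lower in cKO, with a summed level of 194 CPM in WT OPCs and 8.07 CPM in cKO OPCs. A single WT OPC held 339 of the 389 list UMIs. Markers of astrocytes and radial glia summed to 5664 CPM in WT OPCs and 2363 CPM in cKO OPCs, most of it Fabp7, and 2 of the 6 tested genes (Fabp7 and S100b) were at least 2-fold lower. At least 3 UMIs of Slc1a3 were held by 68 WT and 22 cKO OPCs. Markers of excitatory neurons summed to 845 and 723 CPM, and of the 5 tested genes 1 (Snap25) was at least 2-fold higher and 1 (Neurod6, which the rule limits and which does not enter at 44.8 CPM) at least 2-fold lower. At least 3 Stmn2 UMIs were held by 37 WT and 10 cKO OPCs. Markers of GABAergic neurons summed to 252 and 247 CPM, of which 1 of 4 tested (Dlx2, which falls under 2-fold without the highest cells) was at least 2-fold higher, with Gad1 or Gad2 at 3 or more UMIs in 6 WT and 5 cKO OPCs. Endothelial markers summed to 54.0 and 29.6 CPM and ependymal markers to 52.0 and 6.28 CPM, of which Foxj1 gave 44 and 3 UMIs, 39 of them in a single WT cell. Red blood cell markers summed to 13.0 and 4.48 CPM. The mural genes Kcnj8 and Myh11 and the fibroblast genes Col1a1, Col3a1, Dcn, Lum and Dpt were at 0 in OPCs of both libraries, and the remaining signal of those lists was mostly Cspg4 and Pdgfra themselves. The part of these other markers in the results above was not tested, beyond the values without such cells in the closing section.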

How the data were processed

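Per the labels and the methods of the study, newborn telencephalic tissue was dissociated and captured on the 10x Genomics platform, 1 library per genotype. The authors deposited a matrix of raw UMI counts per gene and barcode for each library, written per the file headers by Cell Ranger 3.0.1, with 27998 genes and no normalization. The submitters' processing notes name mm9, STAR, Cell Ranger 2 and Seurat. The annotation and the use of strand in counting are not given in the sources used here. Tables of log fold changes and p-values for clusters, which hold the authors' own comparisons, and a combined matrix were not used.

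OPCs and the gene lists were chosen with earlier results of these data known. A barcode entered with 500 or more genes and 10% or less mitochondrial UMIs. Comparison groups each had Col1a2 and Dcn under 3 UMIs. Olig cells outside the rule held Olig1 and Olig2 at 2 or more and Pdgfra, Cspg4 and Sox10 at most 2. Astrocytes and radial glia held Slc1a3, Aldoc and Aqp4 at 5 or more. They also held at most 1 UMI of Olig1 and Olig2 and at most 1 of Pdgfra, Cspg4 and Sox10. Neurons held Neurod2 and Neurod6 at 3 or more, and the other groups at most 1. Microglia were cells outside the OPC rule with C1q genes at 3 or more. UMIs were summed per library and group and scaled to CPM, with exact Poisson intervals. Log2 ratios have exact conditional binomial intervals and shares exact binomial (Clopper-Pearson) intervals, at a level of 95%. Genes that reached 50 UMIs in WT or cKO OPCs were compared by size, with a ratio of 2-fold as the call, and medians use a pseudocount of 10 CPM. Named genes were those of the rule, those of the lists, the 10 furthest apart each way, the 15 highest in OPCs over other cells and the 5 each way that depart most from other cells, with mitochondrial genes, haemoglobin genes and genes linked to sex left out. Doublets were scored with Scrublet in scanpy 1.11.5 and left out only as an alternative, at a score of 0.25, because the automatic threshold called 0 cKO cells. Calculations used numpy 2.4.6, scipy 1.17.1 and pandas 2.3.3, and TMM factors came from edgeR 4.0.16, with no count model. The ratio and its interval were tested on simulated data. These were Poisson counts, the model that the intervals assume, so the spread between cells was not tested. Alternatives changed the cell filter, the thresholds, the scaling and the UMI minimum. Some genes are not reported here by name, though the counts and medians of their lists include them.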

Additional observations from a re-analysis of the deposited data

Results flagged for a closer look

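The log2 ratio of cKO over WT, of CPM plus 10, lay on opposite sides of 0 in OPCs and in all other cells for 4 of the 10 genes whose ratio in OPCs departed most from that in the other cells. In OPCs it exceeded that of the other cells by 1.62 for Cdkn1c, by 1.43 for Arvcf and by 1.04 for Btg2. For Reln, a secreted matrix protein of Cajal-Retzius cells, the difference was -1.81. These differences were not tested, since each genotype has 1 library. The Reln value rested on a single WT cell with 61 of 78 UMIs, and its ratio in OPCs changed sign to 0.38 without OPCs that held markers of other cells.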

How the results depend on the processing

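The share of OPCs stayed lower in the cKO library under each cell filter and threshold tried. Of 528 alternative ratios of named genes, 505 stayed within counting error of the main value and 23 moved further, 5 of them across 0. Of 212 alternative list medians, 130 stayed near the main value and 82 moved further, 14 of them across 0, and the cause was not tested. Without a limit on mitochondrial UMIs, the difference in OPC share was -1.36 points and medians were -0.55 for precursor genes, -0.18 for progenitor genes, -0.28 for committed-stage genes, 0.12 for cyclins D and inhibitors, 0.45 for stress genes, -0.61 for astrocyte markers and -0.55 for excitatory neuron markers. With 1000 genes and 5% mitochondrial UMIs as limits, the difference in OPC share was -3.57 points, 57 genes were at least 2-fold higher, 306 at least 2-fold lower, medians were -0.0077 for progenitor genes, -0.77 for committed-stage genes, -1.22 for G1/S genes, 0.063 for cyclins D and inhibitors, 0.28 for Notch pathway, -0.63 for synaptic receptors, -0.41 for astrocyte markers and -0.59 for excitatory neuron markers and medians changed sign to 0.66 for G2/M genes, 0.034 for Id, BMP and Wnt brakes, -0.088 for regional factors and -0.35 for stress genes. Without cells of doublet score above 0.25, medians were -0.18 for progenitor genes, -0.59 for G1/S genes, 0.35 for cyclins D and inhibitors, -0.067 for adhesion genes, 0.67 for regional factors, 0.50 for stress genes, -0.76 for astrocyte markers, -0.23 for excitatory neuron markers and 0.71 for GABAergic markers. With looser OPC thresholds, medians were -0.49 for precursor genes, -0.49 for G2/M genes, -0.77 for astrocyte markers and -0.22 for excitatory neuron markers and the median changed sign to 0.048 for Id, BMP and Wnt brakes. With stricter OPC thresholds, medians were -0.36 for precursor genes, -0.0035 for progenitor genes, -0.13 for G2/M genes, -0.48 for synaptic receptors, -0.11 for adhesion genes, -0.59 for excitatory neuron markers and 0.43 for GABAergic markers. With the OPC thresholds read after thinning, the difference in OPC share was -1.34 points, medians were -0.47 for precursor genes, -0.97 for G1/S genes, -0.78 for G2/M genes, -0.68 for synaptic receptors, -0.99 for sterol synthesis and -0.70 for astrocyte markers, medians changed sign to 0.034 for growth factor receptors, 0.032 for progenitor genes, 0.16 for Id, BMP and Wnt brakes and -0.19 for regional factors and the Reln log2 ratio changed sign to 0.35. With TMM factors, the median was -0.40 for precursor genes. With the mean of single-cell CPM, medians were -0.60 for precursor genes, -0.15 for growth factor receptors, -0.22 for myelin genes, -0.72 for G1/S genes, -0.41 for G2/M genes, 0.086 for cyclins D and inhibitors, 0.053 for regional factors, 0.57 for stress genes, -0.92 for sterol synthesis and -0.60 for astrocyte markers and medians changed sign to 0.050 for progenitor genes and -0.29 for GABAergic markers. Without OPCs that held markers of other cells, a check added after the data were seen, medians were -0.49 for precursor genes, -0.90 for committed-stage genes, -1.24 for myelin genes, -0.45 for G2/M genes, 0.11 for cyclins D and inhibitors, -0.53 for synaptic receptors, 0.18 for regional factors, 0.52 for stress genes and -0.068 for excitatory neuron markers, medians changed sign to 0.012 for progenitor genes and 0.026 for adhesion genes and the Reln log2 ratio changed sign to 0.38. Without dividing OPCs, also added after the data were seen, medians were -0.76 for committed-stage genes, -0.93 for G1/S genes, 0.35 for cyclins D and inhibitors, -0.62 for synaptic receptors, 0.091 for regional factors, 0.56 for stress genes and -0.87 for astrocyte markers and the median changed sign to -0.70 for GABAergic markers. Without the WT cell that held most Mbp UMIs, a check added after the data were seen and outside the counts above, the median was -0.25 for committed-stage genes and changed sign to 0.14 for myelin genes. With entry at an equal 44.8 CPM, also added then, 311 genes were at least 2-fold lower and 189 higher, the median was -0.72 for committed-stage genes and medians changed sign to 0.011 for progenitor genes and 0.011 for Id, BMP and Wnt brakes. With a minimum of 20 UMIs a gene, 413 genes were at least 2-fold higher and 1203 lower, and with 100 UMIs 71 and 279, since fewer genes enter; these minimums share the unequal entry of the 2 libraries. The matrix that combines both libraries was not used, because its barcode suffixes name no library. No paired analysis was possible because each genotype has 1 library. With 148 cKO OPCs, genes under 50 UMIs in both libraries were not compared, and no value separates genotype from library, sex or dissection.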
